A study of Saccharomyces cerevisiae with 30 samples.

Results

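The 137 genes described here encode the proteins of the cytosolic ribosome of budding yeast. They were chosen by name, as every RPL and RPS gene with an optional A or B and the 5 stalk genes RPP0, RPP1A, RPP1B, RPP2A and RPP2B, out of 5890 genes listed in every table. The large subunit holds 81 of them and the small subunit 56. Duplicated proteins account for 57 pairs of A and B genes (114 genes), and 23 genes have no such copy. All 137 had a mean input count of at least 20, the minimum for testing, which left 5286 genes in all, and no member was at 0 in any library.

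Proximity-specific ribosome profiling was applied to Saccharomyces cerevisiae whose SRP72 gene was fused to an auxin-inducible degron. Srp72 is a core subunit of SRP, the signal recognition particle, which takes ribosomes that make secretory proteins to the endoplasmic reticulum (ER). A biotin ligase (BirA) on 1 cell surface biotinylates nearby ribosomes, and footprints of a streptavidin pulldown and of the whole lysate (input) were sequenced as 15 pairs. Auxin was given at 500 µM, and each combination of series, time and fraction had 1 library, so the series is what repeats. The p-values measure the spread between series, except in the comparison of cycloheximide with none, where they measure the spread over matched times.

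Every strain carried srp72-AID-HA, the auxin receptor OsTIR1 and acceptor tags on both copies of RPL16 (RPL16a-HA-TEV-AVI and RPL16b-HA-TEV-AVI), and no strain without the degron was analysed here, so auxin, loss of Srp72 and time in culture cannot be told apart. The Sec63 series with cycloheximide (SEC63-mVenus-BirA, S288C, ER) and the Ubc6 series (BirA-mVenus on the UBC6 tail anchor under the SEC63 promoter, S288C, ER) were sampled at 0, 15, 30 and 60 min. The Sec63 series without cycloheximide (same strain, ER) was sampled at 0, 30 and 60 min. The Tom20 series (TOM20-mVenus-BirA, W303, mitochondrial surface) and the Om45 series (OM45-mVenus-BirA, S288C, mitochondrial surface) were sampled at 0 and 30 min. Cycloheximide, which stops elongation, was added at 100 µg/ml for 2 min with a biotin pulse of 2 min, and the series without it had a pulse of 1 min. The pulse was 10 nM biotin in every series, and all cultures were grown in medium with the same set biotin level. The degron acts on Srp72 protein, so footprints on SRP72 do not check its depletion.

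Ribosomal protein genes are among the most heavily translated genes of growing yeast, and most proteins of the ribosome are encoded by an A and a B gene of nearly the same sequence. Their transcription is driven by Rap1, Fhl1, Ifh1 and Sfp1, follows TOR signalling, and is known to drop together under stress and poor nutrition. The proteins are made on free cytosolic ribosomes, enter the nucleus and are built into subunits by ribosome biogenesis factors, some with a dedicated chaperone.

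Input libraries held 2.04 to 113 M counts on listed genes (M, mega) and pulldowns 4.86 to 103 M, and the shallowest was the Ubc6 input at 0 min. An exact 95% binomial interval of the ribosomal protein share was at most 0.0523 percentage points to either side, which covers counting error only. The authors' RPKM and counts together imply the length over which each gene was counted. It ran from 153 of 542 nt (RPL39) to 1164 of 1164 nt (RPL3) in genes without a copy, where the span includes introns, and was short in some duplicated ones (206 of 1089 nt for RPL4A and RPL4B, 26 of 78 nt for RPL41A and RPL41B), and 47 of 57 pairs had equal implied lengths. Counts of near-identical copies are therefore uncertain, and levels of different genes are set side by side only per length, as RPKM. The Tom20 series stood apart in its inputs, with the highest ribosomal protein share at 0 min and the lowest at 30 min. The count of members changed in input at 30 min and their median are given with and without it. Other pooled values at 30 min include it unless stated.

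Before auxin the ribosomal protein genes took 17.8% of input counts in the Sec63 series with cycloheximide, 17.6% in the Ubc6 series, 17.3% in the Sec63 series without cycloheximide, 20.1% in the Tom20 series and 17.7% in the Om45 series. Their share at 15 min was 18.5% in the Sec63 series with cycloheximide and 16.2% in the Ubc6 series. At 30 min the shares ran from 12.1% (Tom20) to 15.6% (Sec63 with cycloheximide), and at 60 min they were 8.33%, 6.06% and 7.40% in the Sec63 series with cycloheximide, the Ubc6 series and the Sec63 series without it. The ranges at 0, 30 and 60 min did not overlap, with means of 18.1% ± 1.14 (SD, n = 5 series), 13.8% ± 1.37 (SD, n = 5) and 7.26% ± 1.14 (SD, n = 3). With the 20 most counted other genes left out, the ranges at 0 and 30 min did overlap. The share was then 22.6% at 30 min in the Sec63 series with cycloheximide and 22.2% at 0 min in that without it. The 60 min range stayed apart (at most 11.8%, against at least 16.8% at 30 min). In the pulldowns the share was lower than in the paired input except at 60 min in the Sec63 series without cycloheximide (7.67% against 7.40%). It ran from 5.30% to 15.6% at 0 min and from 3.63% to 7.67% at 60 min.

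**Figure D1:**
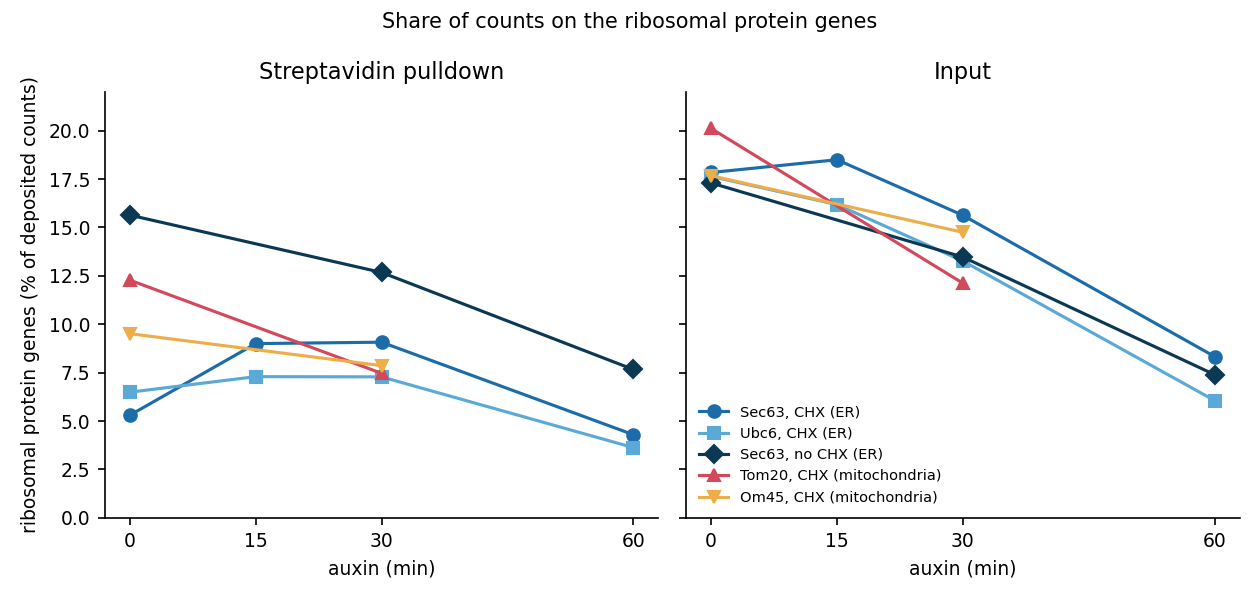
Percent of deposited counts on the 137 ribosomal protein genes (y axis) against minutes of auxin (x axis), in pulldowns (left) and inputs (right), 1 point per library and 1 line per series; CHX is cycloheximide. Inputs lie between 17.3% and 20.1% at 0 min and between 6.06% and 8.33% at 60 min.

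Single genes were high throughout. By mean RPKM in the 5 inputs at 0 min, the highest members were RPL41B (13127), RPL41A (10667) and RPL29 (8682), and the lowest were RPS9A (508), RPL22B (313) and RPL15B (96.7 ± 19.2, SD, n = 5). RPL41A and RPL41B encode the smallest ribosomal protein and were counted over 26 nt each. Their RPKM spread widely, with RPL41B between 3270 and 38723 over the 5 inputs, so neither is separated from RPL29 by more than its spread. RPL15B ranked 1181 among all genes and stood far below its copy RPL15A, which encodes the same large-subunit protein.

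The time course asks when footprints on these genes changed after auxin. At 15 min 1 of 137 members was lower and 0 higher in the edgeR quasi-likelihood test over all genes, with 2 at an unadjusted p below 0.05, where 8.48% of all genes were lower and 5.24% higher. At 30 min 42 were lower and 1 higher, against 23.9% and 21.8% of all genes. At 60 min 131 were lower and 1 higher, against 28.2% and 30.6% of all genes. The median log2 change of the members was 0.01, -0.23 and -1.39 at 15, 30 and 60 min, and that of all genes was 0.02, 0.03 and 0.06. The 15 min value pools series that moved in opposite directions. The member median at 15 min was 0.19 in the Sec63 series with cycloheximide (41 of 137 below 0) and -0.10 in the Ubc6 series (94 below 0).

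The fall lay mainly between 30 and 60 min. The direct contrast of 60 with 30 min called 133 members lower and 1 higher, with a median of -1.17, against 14.5% and 10.9% of all genes. In the Sec63 series with cycloheximide 131 of 137 members changed further downward between 30 and 60 min than between 0 and 30 min, and in the Ubc6 series and the Sec63 series without the drug 134 and 132 did. The median change at 30 min was 15.3% of that at 60 min in the Ubc6 series and 14.6% in the Sec63 series without cycloheximide. In the Sec63 series with cycloheximide the 30 min median was slightly positive (0.05) beside -1.16 at 60 min.

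The 30 min count depended on the series and the scaling. The median change at 30 min was 0.05 in the Sec63 series with cycloheximide, -0.24 in the Ubc6 series, -0.18 in the Sec63 series without it, -0.61 in the Tom20 series and -0.10 in the Om45 series. Without the Tom20 series 17 members were lower and 1 higher (median -0.13), without the Ubc6 series 16 and 1, and without the Sec63 series with cycloheximide 4 and 1. With library totals in place of TMM scaling 104 were lower and 0 higher, beside an all-gene median of -0.13. The counts at 60 min stayed between 131 and 132 when each series was left out in turn. With libraries centred on glycolysis and translation factor genes, which itself moved the all-gene median to 0.71 at 60 min, 124 members were lower and 4 higher.

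**Figure D2:**
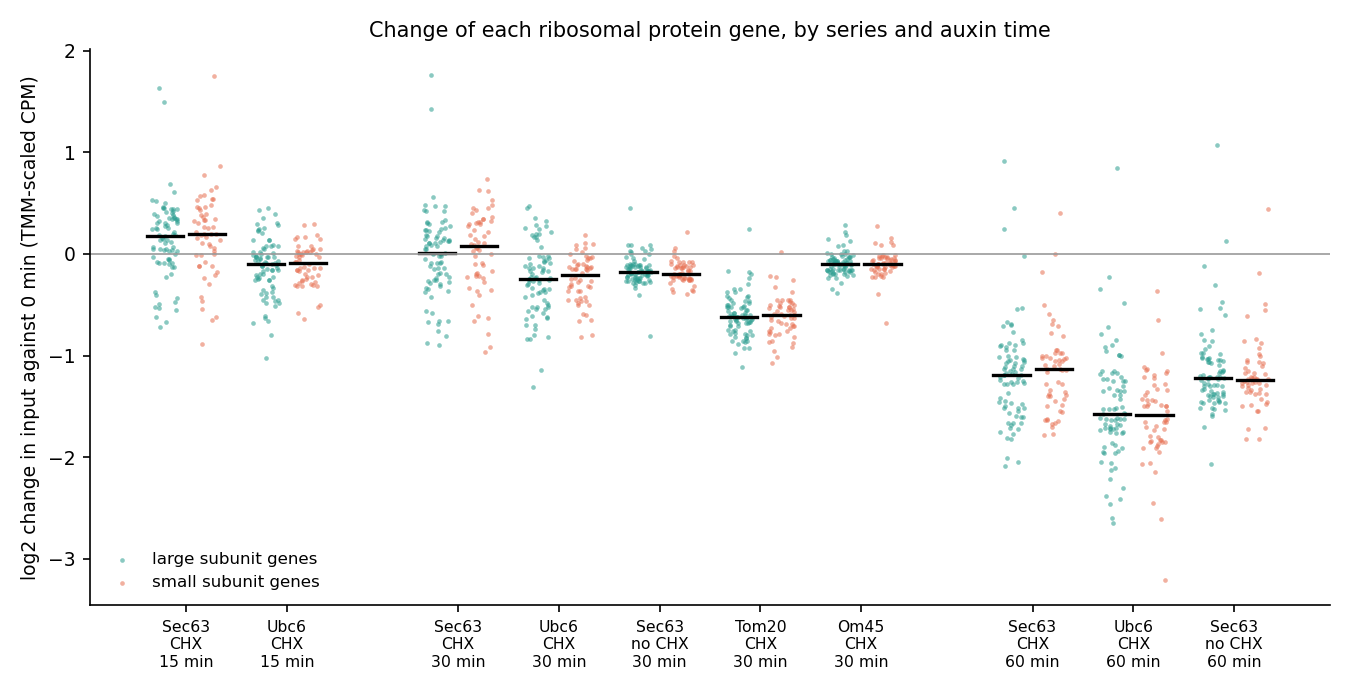
Log2 change of each ribosomal protein gene in input against the 0 min input of its series (y axis, TMM-scaled CPM, the counts put on a common library total), by series and auxin time (x axis); each dot is a gene, large-subunit genes are left and small-subunit genes right in each column, and bars are medians. The columns at 60 min have medians of -1.58 to -1.13, while those at 15 and 30 min lie between -0.62 and 0.20.

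Across members the sizes of the changes were alike between series at 60 min and less so at 30 min. Over 137 genes, Pearson's r between series was 0.67 to 0.81 for the 60 min change and 0.78 to 0.82 for the change between 30 and 60 min. Spearman's rho was lower, at 0.53 to 0.70 and 0.66 to 0.78. For the 30 min change Pearson's r ran from -0.18 (Sec63 with cycloheximide and Om45) to 0.72 (Sec63 without cycloheximide and Om45), and rho from -0.16 to 0.74 in the same pairs. These are descriptions across genes, which share libraries and are not independent.

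Large and small subunits moved together. The large-subunit genes had a median of -1.19, -1.58 and -1.22 at 60 min in the Sec63 series with cycloheximide, the Ubc6 series and the Sec63 series without it, against -1.13, -1.58 and -1.24 for the small-subunit genes. The difference of medians, large minus small, averaged -0.02 ± 0.03 at 30 min (SD, n = 5) and -0.01 ± 0.04 at 60 min (SD, n = 3). Both averages were smaller than the spread between series. A library's scaling shifts both medians alike, so no scaling can move this difference. At 60 min 77 of 81 large-subunit and 54 of 56 small-subunit genes were lower. Genes without a copy had a median of -1.45 ± 0.24 at 60 min and duplicated ones -1.30 ± 0.21 (SD, over the same 3 series). Within each series the genes without a copy were lower. Their medians were -1.37 against -1.14 (Sec63 with cycloheximide), -1.71 against -1.53 (Ubc6) and -1.26 against -1.23 (Sec63 without it).

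The tagged protein Rpl16, which carries the biotin acceptor in all strains, sits on the solvent side of the large subunit. RPL16B had 2374, 2398, 1982 and 981 CPM (here without TMM, from the total on listed genes) at 0, 15, 30 and 60 min in the Sec63 series with cycloheximide, 2058, 2012, 1659 and 748 in the Ubc6 series, and 2496, 2004 and 981 at 0, 30 and 60 min in the Sec63 series without it. RPL16A had 659, 856, 723 and 366 CPM, 832, 785, 638 and 375 CPM, and 965, 716 and 429 CPM in the same libraries. All 60 min values of both genes lay below all 0 min values. The log2 change at 60 min was -1.21 ± 0.14 for RPL16A and -1.50 ± 0.13 for RPL16B (SE, edgeR adjusted p of 1.03e-05 and 1.44e-06). Neither passed the test at 30 min (-0.20, adjusted p 0.152, and -0.24, adjusted p 0.0762).

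The stalk recruits the GTPases of translation: RPP0 anchors it to the large subunit, and the acidic proteins of RPP1A with RPP2B and RPP1B with RPP2A bind to it as pairs. RPP1A had 2233, 1493, 1304 and 724 CPM at 0, 15, 30 and 60 min in the Sec63 series with cycloheximide and 2872, 1414, 1044 and 478 CPM in the Ubc6 series, but 1332, 1182 and 635 CPM at 0, 30 and 60 min in the Sec63 series without it. At 15 min its CPM was below that at 0 min in both series sampled then. All 5 genes fell at 60 min, with log2 changes of -1.50 (RPP0), -1.81 (RPP1A), -1.13 (RPP1B), -1.50 (RPP2A) and -1.73 (RPP2B). At 30 min RPP1A (-0.55, adjusted p 0.0283), RPP2A (-0.39, 0.0353) and RPP2B (-0.39, 0.00806) were lower in edgeR. The series differed in size, from -1.31 to 0.03 for RPP1A, -0.80 to 0.03 for RPP2A and -0.79 to -0.17 for RPP2B. RPP0 (-0.17) and RPP1B (-0.13) did not pass.

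RPL40A, RPL40B and RPS31 encode ribosomal proteins made as fusions to ubiquitin, so their translation also supplies ubiquitin. RPS31 had 3210, 3967, 3475 and 1735 CPM at 0, 15, 30 and 60 min in the Sec63 series with cycloheximide, 2877, 2919, 2533 and 1103 CPM in the Ubc6 series, and 2734, 2065 and 1065 CPM at 0, 30 and 60 min in the Sec63 series without it. The 3 values at 60 min are the lowest of the gene's 15 inputs. RPS31 fell by 1.36 ± 0.14, RPL40A by 1.17 ± 0.13 and RPL40B by 1.28 ± 0.12 on the log2 scale at 60 min (SE, edgeR adjusted p of 3.39e-06, 1.01e-05 and 1.42e-06). None passed at 30 min (-0.12, -0.12 and -0.16).

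The largest falls at 60 min were in RPL9A, RPS26B and RPL23A, which belong to both subunits. RPL9A (chromosome VII, 227754 to 228329, RefSeq R64) had 1553, 1846, 1541 and 443 CPM at 0, 15, 30 and 60 min in the Sec63 series with cycloheximide, 1636, 1471, 1140 and 321 CPM in the Ubc6 series, and 1712, 1232 and 408 CPM at 0, 30 and 60 min in the Sec63 series without it. The 60 min values were below all others, and the fitted fall was 2.23 ± 0.16 on the log2 scale (SE, edgeR adjusted p 2.45e-07). RPS26B, whose protein lies beside the exit of the mRNA channel, fell by 2.15 ± 0.19 (adjusted p 1.15e-06). RPL23A, whose protein lies on the joining face of the large subunit, fell by 2.03 ± 0.17 (adjusted p 8.77e-07). The member lowest at 30 min was RPL18B, with 250, 171, 145 and 132 CPM in the Sec63 series with cycloheximide and 250, 176, 135 and 106 CPM in the Ubc6 series. It was also the only member called at 15 min (-0.43, edgeR adjusted p 0.0473), a call that was lost under several scalings and when any of 3 series was left out (adjusted p up to 0.429). It fell by 0.58 ± 0.09 at 30 min (adjusted p 0.000225) and by 1.05 ± 0.11 at 60 min (adjusted p 5.97e-06). The other members among the 5 lowest at 30 min were RPL22B (-0.56), RPP1A (-0.55), RPL23A (-0.51) and RPL11A (-0.50).

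RPL15B (chromosome XIII, 509734 to 510348) was the only member called higher at 30 and at 60 min. It had 48.0, 44.3, 61.9 and 103 CPM at 0, 15, 30 and 60 min in the Sec63 series with cycloheximide, 59.8, 60.5, 66.2 and 112 CPM in the Ubc6 series, 55.6, 66.0 and 116 CPM at 0, 30 and 60 min in the Sec63 series without it, 43.4 CPM at 30 min against 39.6 CPM at 0 min in the Tom20 series, and 58.9 against 54.7 CPM in the Om45 series. The 3 values at 60 min are above all others, and the 30 min value exceeds the 0 min value in every series. The log2 change was 0.36 ± 0.08 at 30 min (SE, edgeR adjusted p 0.00339) and 0.92 ± 0.10 at 60 min (adjusted p 6.04e-06). The log2 change of its copy RPL15A was -1.50 ± 0.13 at 60 min (adjusted p 1.06e-06).

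5 members did not pass the test at 60 min: RPS9A (0.10, adjusted p 0.704), RPL9B (-0.15, 0.405), RPL41B (-0.59, 0.225), RPL41A (-0.66, 0.0683) and RPS30A (-0.28, 0.0583). With libraries centred on glycolysis and translation factors, RPL9B (0.50, adjusted p 0.00267) and RPS30A (0.36, adjusted p 0.0246) were above 0 and called. RPL10, a single-copy gene for a protein that is added late to the large subunit beside its catalytic centre, had 3652, 5069, 4650 and 2630 CPM in the Sec63 series with cycloheximide and 3468, 4286, 4330 and 3083 CPM in the Ubc6 series. Its CPM at 15 and 30 min was above that at 0 min in both. In the other series, CPM without TMM was lower at 30 than at 0 min: Sec63 without cycloheximide (4127 against 4488), Tom20 (3872 against 5321) and Om45 (4227 against 4497). With TMM scaling, however, RPL10 was above its 0 min value at 30 min in every series but Tom20 (log2 change 0.08 to 0.47, Tom20 -0.35). It fell by 0.57 ± 0.16 at 60 min (SE, edgeR adjusted p 0.00868), the smallest fall among the 23 genes without an A or B copy, and was at 0.07 with the centring on glycolysis and translation factors.

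The balance of A and B copies was followed as the share of A in the RPKM of the pair, and as the difference of log2 changes (A minus B), which no scaling between libraries can move. At 60 min 7 of 57 pairs differed by at least 1 log2 unit and 37 differed in the same direction in all 3 series. At 30 min no pair differed by 1 unit (0 of 57), and 17 had the same direction in all 5 series. An exact sign-flip test over 3 series cannot go below a p of 0.25, and over 5 series below 0.0625, so these are descriptions. The pairs moved both ways, 25 with A above B and 32 with A below B at 60 min, with a median of -0.07.

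In the RPL15 pair the A copy supplied 98.2%, 98.4%, 97.3% and 91.1% of the RPKM at 0, 15, 30 and 60 min in the Sec63 series with cycloheximide, 97.3%, 97.2%, 96.4% and 87.1% in the Ubc6 series, and 98.0%, 97.1% and 90.4% at 0, 30 and 60 min in the Sec63 series without it. The A minus B difference was -2.39 ± 0.03 at 60 min (SD, n = 3 series). For RPL9 the A share was 83.6%, 83.9%, 80.4% and 51.6% in the Sec63 series with cycloheximide, 81.3%, 81.2%, 73.9% and 51% in the Ubc6 series, and 78.6%, 75.2% and 48.8% in the Sec63 series without it, a difference of -2.09 ± 0.16. Both copies of RPL9 thus stood at nearly equal RPKM at 60 min in all 3 series. RPL4 (-1.16 ± 0.17) and RPS22 (-1.15) also had the larger fall in A. Rpl4 extends into the exit tunnel, and Rps22 belongs to the small-subunit body.

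RPS9, a small-subunit protein that governs decoding accuracy, moved the other way. RPS9A gave 7.4%, 7.3%, 7.7% and 26.5% of the pair at 0, 15, 30 and 60 min in the Sec63 series with cycloheximide, 10.1%, 10.6%, 12.3% and 27.8% in the Ubc6 series, and 9.4%, 8.4% and 31.7% at 0, 30 and 60 min in the Sec63 series without it. The A minus B difference was 2.04 ± 0.22 at 60 min (SD, n = 3) and -0.02 ± 0.25 at 30 min (SD, n = 5). RPS26 (1.19 ± 0.23) and RPS30 (1.07 ± 0.17) were the other pairs with B falling further by at least 1 unit. In both, A was above B at 30 min already in all 5 series, by 0.31 and 0.41. Differences at 30 min were also large in RPL15 (-0.57 ± 0.21), RPL4 (-0.47 ± 0.34), RPS30 (0.41 ± 0.16) and RPL9 (-0.39 ± 0.14; SD, n = 5 series each). The RPL22 pair varied widely between series at 60 min, with an SD of 0.87.

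**Figure D3:**
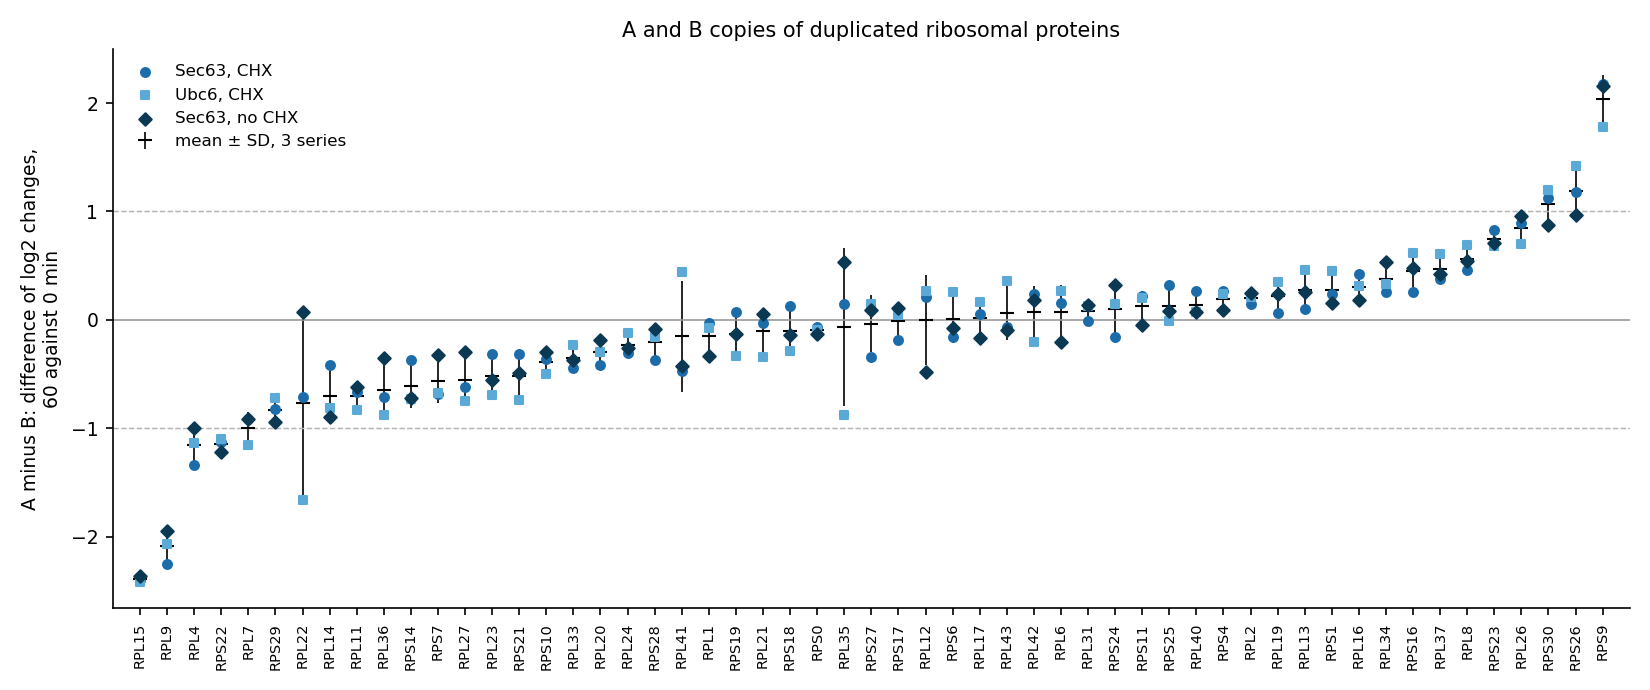
Difference of log2 changes in input, A copy minus B copy, 60 against 0 min (y axis), for duplicated ribosomal proteins sorted by their mean (x axis); symbols are the 3 series, and black bars are mean ± SD. Most pairs lie within 1 log2 unit of 0 (dashed lines), with RPL15 and RPL9 below -2 and RPS9 at 2.04.

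The copy with fewer counts at 0 min was then compared with its partner in the change between 30 and 60 min, which uses other libraries. The minor copy changed less downward, or upward, in 39 of 57 pairs, in all 3 series in 33 of them, and the major copy did in 18, in all 3 series in 12. The median difference, minor minus major, was 0.17, with a range of -0.89 (RPS26) to 1.97 (RPS9). Where the minor copy had no more than 50% of the major copy's counts it was higher in 19 of 24 pairs. RPS26B and RPS29A, minor copies of their pairs, had the largest differences the other way. Over all 137 genes, log2 RPKM at 0 min and the change between 30 and 60 min had a Pearson r of -0.53 and a Spearman rho of -0.21. The medians of the highest, the middle and the lowest group by RPKM (46, 46 and 45 genes) were -1.21, -1.26 and -1.10, which do not fall in order of level.

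Genes that make and regulate ribosomes were set beside the ribosomal proteins. Of all genes 8.48%, 23.9% and 28.2% were lower at 15, 30 and 60 min, and 5.24%, 21.8% and 30.6% were higher. Ribosome biogenesis factors, which process rRNA and assemble subunits, were lower for 68 of 82 at 15 min, 81 at 30 min and 82 at 60 min (edgeR), with medians of -1.03, -1.12 and -1.86. NSR1, the yeast nucleolin, changed by -2.80, -2.55 and -4.32, and DBP2, an RNA helicase, by -1.84, -2.41 and -4.59 (all edgeR adjusted p of 0.000601 or less). SDA1, needed for export of the large subunit, was at -1.78 at 30 min. Chaperones of single ribosomal proteins were lower for 9, 11 and 12 of 13. SYO1, which carries Rpl5 and Rpl11, changed by -1.92, -1.71 and -2.15, and RRB1, the chaperone of Rpl3, by -1.08, -1.02 and -2.37. At 15 min these lists had thus passed the test for most members, when 1 ribosomal protein gene had. From 30 to 60 min 54 of 82 biogenesis factors and 133 of 137 ribosomal protein genes were lower, against 14.5% of all genes.

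Translation factors followed later, with 1, 23 and 34 of 39 lower and 0, 2 and 0 higher at 15, 30 and 60 min. Mitochondrial ribosomal proteins, which serve the organelle's own ribosome, had 0, 1 and 7 of 73 lower and 0, 4 and 6 higher. Their median was -0.01 at 60 min, when 28.2% of all genes were lower and 30.6% higher. Glycolysis genes were lower for 0, 1 and 10 of 21 and higher for 5, 9 and 7. General stress genes were higher for 15, 25 and 25 of 30, and heat shock genes, a list that overlaps them and holds mitochondrial chaperones too, for 15, 29 and 29 of 30. Of 16 regulators of ribosomal protein genes 3, 10 and 8 were lower and 0, 1 and 3 higher. TOD6, a repressor of biogenesis genes, changed by -2.77, -2.07 and -2.40 (edgeR adjusted p of 0.000957, 2.65e-05 and 3.07e-05), MRS6, which binds Sfp1, by -0.01, -0.90 and -1.68 (0.97, 8.05e-05 and 2.04e-06), and RAP1, the main DNA-binding activator, by -0.41, -0.44 and -0.73 (0.0278, 0.000452 and 2.59e-05). FHL1 and IFH1, its partners, were lower at 60 min (-0.73 and -0.49, adjusted p 0.000847 and 0.0325), while HMO1, a high-mobility protein on these promoters (0.54, adjusted p 0.00713), was higher.

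SCH9, a kinase downstream of TOR, was lower at 15, 30 and 60 min (-0.43, -0.30 and -0.30, edgeR adjusted p of 0.0389, 0.0141 and 0.0271). ABF1, a general DNA-binding factor, was lower at 30 and 60 min (-0.28 and -0.60), as was DOT6, the partner of TOD6 (-0.31 and -0.36). KOG1 (-0.47) and TOR2 (-0.30), components of TOR complexes, were lower at 30 min alone of the 3 times. SFP1, an activator, had -0.25 and 0.10 at 15 and 30 min and was higher at 60 min (0.26, adjusted p 0.0386). NNK1, a kinase linked to TOR, was higher at 60 min (0.73, adjusted p 0.00415). STB3 (0.12), CRF1 (0.58) and TOR1 (-0.20) did not pass at any of the 3 times, and the values given are at 60 min.

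**Figure D4:**
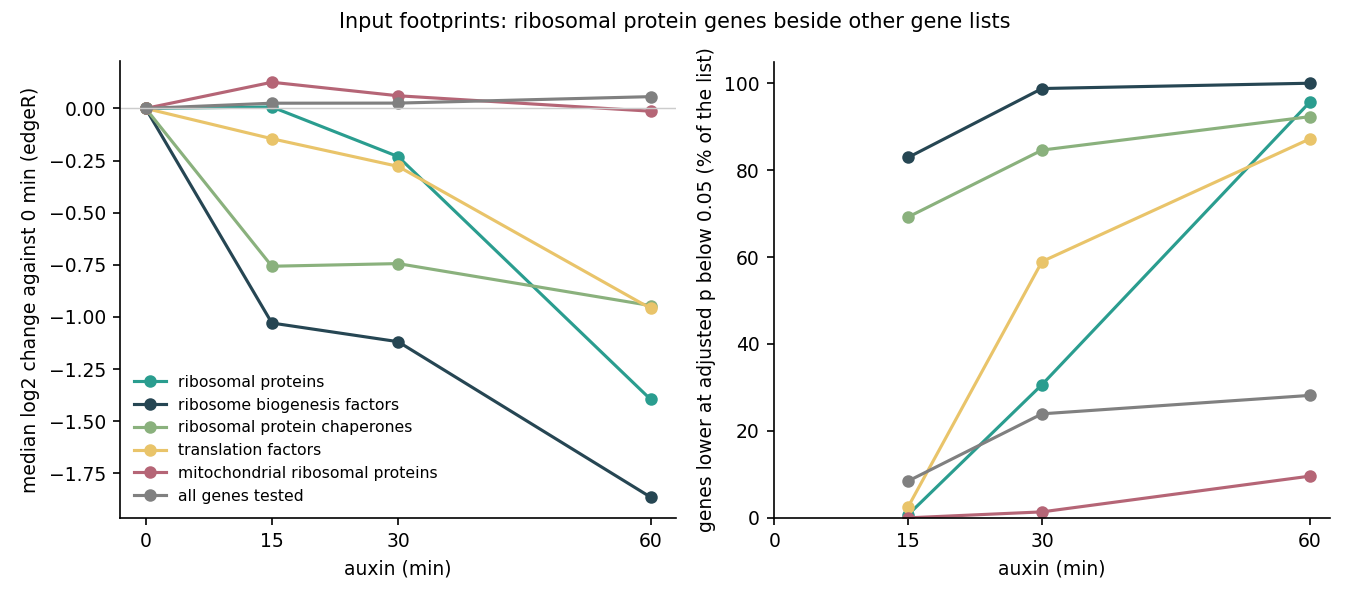
Median log2 change in input by edgeR (left) and percent of each list lower at an adjusted p below 0.05 (right) against minutes of auxin, for ribosomal protein genes, other gene lists and all genes tested; the left panel starts at 0 by definition. Biogenesis factors are at -1.03 at 15 min, when ribosomal protein genes are at 0.01.

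Cycloheximide was compared over the 3 matched times of both Sec63 series, 1 series against 1 other. The drug thus cannot be told apart from other differences between them, the biotin pulse included. The p-values here measure the spread over those times, not between series. 1 member was lower and 2 were higher with cycloheximide (0.17% of all genes each way), and the median was 0.13 beside -0.02 for all genes. RPS6B, the small-subunit protein phosphorylated downstream of TOR, had 821, 389 and 359 CPM with the drug at 0, 30 and 60 min, against 296, 243 and 128 CPM without (1.24, edgeR adjusted p 0.05, just under the threshold). RPL11B, part of the 5S particle, had 625, 447 and 345 CPM, against 328, 284 and 181 CPM (0.86 ± 0.12, adjusted p 0.045). RPS6B and RPL11B each had more CPM with the drug at all 3 times. With library totals 1 member was lower and 11 higher, with DESeq2 2 and 24, with A and B counts summed 0 passed, and without the 0 min libraries 0 passed.

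Ribosomal proteins have no signal sequence, and their pulldown over input serves here as a cytosolic reference in each pair of libraries. The median log2 ratio of the members at 0 min was -0.44 in the Sec63 series with cycloheximide, -0.65 in the Ubc6 series, 0.13 in the Sec63 series without it, -0.29 in the Tom20 series and -0.74 in the Om45 series. The median of all genes in the same pairs was -0.44, -0.29, -0.11, -0.24 and -0.21. With library totals in place of TMM the member medians were -1.68, -1.42, -0.09, -0.68 and -0.90 in the same order. Their level thus depends on the scaling, while their distance from the all-gene median does not. Relative to all genes the members were thus lowest at Om45 (-0.53) and highest in the Sec63 series without cycloheximide (0.25). Within a pair they lay close together, with an interquartile range of 0.12 to 0.32 over the 15 pairs, against 0.50 to 1.25 for all genes.

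No member passed the test between ER and mitochondrial baits at 0 min in edgeR (0 higher, 0 lower, 0 at an unadjusted p below 0.05, DESeq2 0), where 9.48% of all genes were higher and 10.8% lower. The member median was 0.26 (ER minus mitochondria), with 7 of 137 below 0, beside -0.05 for all genes. With 3 residual degrees of freedom the test cannot show that the surfaces are alike for these genes. After 15 min no member's ER enrichment changed (21 at an unadjusted p below 0.05, 5 by DESeq2), and no gene at all passed (0% each way). After 30 min 6 members were higher and 1 lower, against 8.85% and 11.5% of all genes, and the member median of 0.15 equalled that of all genes. At the mitochondrial baits no member changed after 30 min (1 at an unadjusted p below 0.05, DESeq2 0), against 0.927% higher and 0.114% lower. After 60 min 93 members were higher and 0 lower, against 23.1% and 12.3% of all genes, with a median of 0.36 beside 0.29 for all genes. That count fell to 1 with TMM factors computed without the members, to 1 with the glycolysis and translation factor centring, to 2 with DESeq2, to 0 when either ER series with cycloheximide was left out, to 1 when either mitochondrial series was, and to 47 when the Sec63 series lacking cycloheximide was. At 30 min leaving out Ubc6 gave 0 calls, and leaving out the Sec63 series lacking cycloheximide gave 11.

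RPP0 was the member with the largest change. Its log2 ratio at 0, 15, 30 and 60 min was -0.58, 0.27, 0.97 and 1.03 in the Sec63 series with cycloheximide and -0.63, -0.08, 0.49 and 0.61 in the Ubc6 series. It was -0.01, 0.26 and 0.41 at 0, 30 and 60 min in the Sec63 series without it. At the mitochondrial baits it was -0.37 at 30 min against -0.45 at 0 min (Tom20), and -0.68 against -0.71 (Om45). The value at 60 min was above that at 0 min in all 3 ER series, but in the Sec63 series without cycloheximide it was no higher than the median of the members (0.42). The ER change was 0.98 ± 0.20 at 30 min (SE, edgeR adjusted p 0.00388) and 1.09 at 60 min (adjusted p 0.0015). Both calls were lost without the Sec63 series with cycloheximide (0.47, adjusted p 0.216, and 0.46, adjusted p 0.219) and without the Ubc6 series (0.81, adjusted p 0.161, and 0.87, adjusted p 0.125). The difference from the mitochondrial change was 0.93 at 30 min (adjusted p 0.0829). Over all members the test of that difference called 0 higher and 1 lower (RPL41A), against 2.59% and 10.6% of all genes. RPP1A, RPP1B, RPP2A and RPP2B, the other stalk genes, had ER changes of 0.40, 0.11, 0.38 and 0.24 at 30 min, and none passed. Other members called higher included RPL11A (0.54), RPL11B (0.52), RPL16B (0.46) and RPL12B (0.41).

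The tagged copies had differences between baits near 0 before auxin (RPL16A -0.02, RPL16B 0.01, ER minus mitochondria), and neither passed the test. That fit had 3 residual degrees of freedom, so it cannot show that a preference is absent. RPL41A was the member called lower, at -0.48 ± 0.14 after 30 min (SE, edgeR adjusted p 0.0314), and was counted over 26 nt. The call was lost with library totals (adjusted p 0.502), and when Ubc6 (0.0744) or the Sec63 series lacking cycloheximide (0.15) was left out. Its ratio was 0.97, 0.30, 0.60 and 1.02 at 0, 15, 30 and 60 min in the Sec63 series with cycloheximide, 0.29, -0.25, -0.12 and 0.57 in the Ubc6 series, and -0.07, -0.72 and -0.34 at 0, 30 and 60 min in the Sec63 series without it. The 30 min value was below that at 0 min in all 3, but the series did not share a level.

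**Figure D5:**
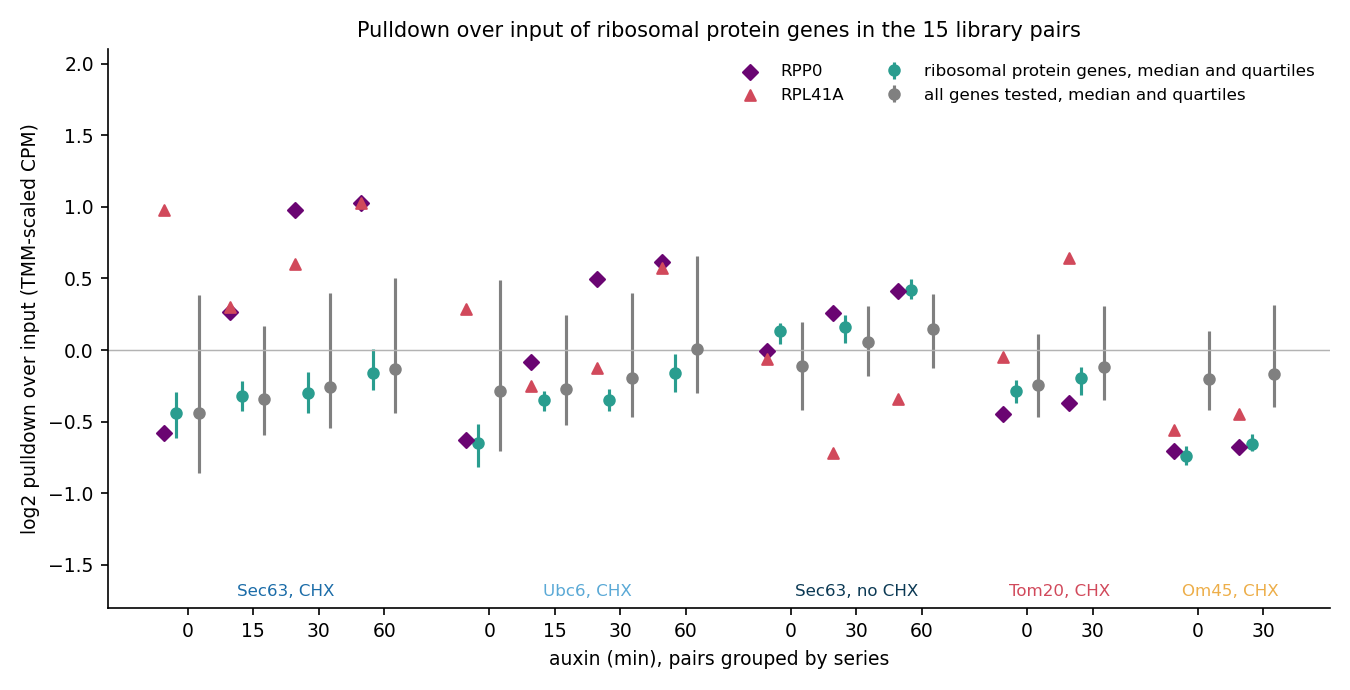
Log2 pulldown over input (y axis, TMM-scaled CPM) in the 15 library pairs, by series and minutes of auxin (x axis); dots with bars are the median and quartiles of ribosomal protein genes (left) and of all genes tested (right), and RPP0 and RPL41A are marked. Quartiles of the ribosomal protein genes span 0.12 to 0.32, and RPP0 stands above them at 30 and 60 min in both ER series that received cycloheximide.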

How the data were processed

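The 30 tables held 1 footprint count and 1 RPKM value per gene, made by the authors, per the file headers. Per the submitters' processing notes, CASAVA, Bowtie 1.1.2, TopHat2 2.1.1 and sacCer3 were used. The sources used here do not state how reads matching both copies of a pair were treated, or whether molecular identifiers (all series but Ubc6, per the labels' protocols) were collapsed. The authors' RPKM values served for levels per length and for the implied lengths.

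Counts of genes with a mean input of at least 20 were fitted with edgeR 4.0.16 (R 4.3.3) quasi-likelihood, TMM scaling and Benjamini-Hochberg adjustment over 5286 genes at 0.05. Inputs (15 libraries, 7 residual degrees of freedom) had the series as a block, and enrichment models had the pair as a block. The cycloheximide comparison (6 libraries, 2 residual degrees of freedom) had auxin time as a block. The fits were tested on simulated data. CPM uses the total of listed genes, and log2 changes per series use TMM with a prior count of 1. DESeq2 1.42.0, other scalings and left-out series were alternatives. Members and lists were chosen with earlier results of these data known. Named by rule were the stalk, tagged and ubiquitin-fused members, the lowest and highest members of each comparison and of RPKM, the 5 pairs that differed most at 30 min, leading genes of other lists and all 16 regulators. Other members named, such as the pairs past 1 log2 unit, were chosen after their values were seen. Coordinates are RefSeq R64. A few members are counted but not reported by name here, and the plot of pairs omits theirs.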

Additional observations from a re-analysis of the deposited data

Results flagged for a closer look

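The Tom20 series, the only one in W303, stood far from the other 4 in 7 of 48 values tested for a single distant series. Chance flags about 1 in 20 groups, but these values come from the same libraries and are not independent, so the count cannot be read against that rate. The member median at 30 min (-0.61, others -0.24 to 0.05) and the share at 30 min (12.1%, others 13.3% to 15.6%) did not pass the same criterion. Its ribosomal protein share of input counts at 0 min was 20.1%, against 17.3% to 17.8%. Its log2 changes at 30 min were -0.66 for RPL15A (others -0.14 to -0.09), -0.76 for RPL16B (-0.16 to -0.05), -0.55 for RPL40B (-0.13 to 0.01), -0.76 for RPP1B (-0.02 to 0.07), -0.61 for RPS0A (-0.22 to -0.12) and -0.69 for RPS0B (-0.22 to -0.16). RPS0A and RPS0B encode a small-subunit protein needed for the last cuts of its rRNA. The strain and the bait of this series cannot be told apart.

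RPL41A differed between surfaces in its 30 min change of enrichment, by -0.88 (ER minus mitochondria, edgeR adjusted p 0.0201). Over the alternatives this difference was lost without the Ubc6 series, without the Tom20 series, with library totals and without the Sec63 series lacking cycloheximide.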

How the results depend on the processing

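Some results stayed within 1.5 times of the values given under every alternative run. These were the 60 min and the 60 against 30 min input counts, the 0 min bait comparison, the mitochondrial change and the paralog counts. For this, 79 of 80 proteins with A and B summed counted as the like of 132 and 134 of 137 genes. For the subunit difference the only alternative was the scaling, which cannot move it. At 15 min the single member was lost with TMM without the members, the glycolysis and translation factor centring, no series block, the shallowest input left out or A and B summed (0 in each), and leave-one-out gave 0 to 1. The 43 members called at 30 min became 104 with library totals, 26 with that centring, 3 without the series block and 27 without the shallowest input, and 5 to 41 over left-out series. The 3 cycloheximide calls became 12 with library totals, 8 with TMM without the members, 10 with the centring, 26 with DESeq2, 7 without the count filter, 0 summed, and 0 to 15 over left-out times (chosen after seeing the data). ER enrichment had 5 calls by DESeq2 at 15 min (0 to 2 over left-out series). At 30 min its 7 calls became 59 with library totals, all higher, 2 with TMM without the members, 2 with the centring, 3 without the filter and 1 summed, and 0 to 11 over left-out series, the lowest direction being 1 lower and 0 higher without the Sec63 series with cycloheximide. At 60 min 93 became 1, 1, 2 (DESeq2), 15 (no filter) and 1 (summed), and 0 to 47 over left-out series. The ER minus mitochondria difference had 0 lower and 1 higher with library totals and without the Sec63 series lacking cycloheximide, and 0 calls without the Ubc6 or the Tom20 series or with A and B summed. Leaving out the 20 most counted other genes gave shares of 23.2% at 0 min and 10.1% at 60 min. The cause of these shifts was not tested.

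Of the named genes, reversed signs came from the centring in RPL10 (0.072), RPL9B (0.50) and RPS30A (0.36) at 60 min, in RPL18B (0.11), RPL9B (0.37), RPS22B (0.092) and RPS30A (0.17) from 30 to 60 min, and in the 60 min ER change of RPL10 (-0.044), RPS0A (-0.014), RPS0B (-0.0055) and RPS31 (-0.074). Over left-out series that ER change ran from -0.020 to 0.31 in RPL10, -0.046 to 0.40 in RPL40B, -0.020 to 0.32 in RPS0A, -0.028 to 0.36 in RPS0B, -0.059 to 0.27 in RPS31 and -0.018 to 0.44 in RPS6B, lowest without the Sec63 series with cycloheximide. The labels give no replicate numbers to block on. The series or the library pair was the block in the fits given, and auxin time in the cycloheximide comparison. A filter on protein identity and a promoter motif search were not run, and pairs with both implied lengths of at least 200 nt were used in place of the filter, chosen after seeing the data (6 of 46 pairs past 1 log2 unit at 60 min). Depth limits the Ubc6 input at 0 min (2.04 M counts) and genes counted over few nt, such as RPL41A.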
